A study of Homo sapiens with 6 samples.

Results

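The cancer-testis antigen families were compared between the 231-BR cell line, selected for growth in the brain, and MDA-MB-231, the breast cancer line it came from. The genes were taken by the first letters of their symbols, MAGEA, MAGEB, MAGEC, GAGE, XAGE, PAGE, SPANX, CTAG, and SSX followed by a digit, and rows with identical values within a family were counted as 1. In this way 38 of the 17039 genes in the expression table were found, or 34 distinct rows. Of these, 6 belong to other families, namely 5 CTAGE genes and SSX2IP, a centrosomal partner of an SSX protein, and are described apart. The cancer-testis families themselves made up 32 genes and 28 distinct rows. The RefSeq annotation (GRCh38.p14) holds 70 protein-coding genes of these families, and 31 of them were in the table. For MAGEA these were 8 of 12 genes, for SSX 6 of 8, for SPANX 7 of 10, for GAGE 1 of 12 and for the NY-ESO-1 genes (CTAG) 0 of 3. The other genes were not analysed here.

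Each line was represented by 3 parallel replicates, in which polyadenylated RNA was read. MDA-MB-231, called the parental cells below, is a triple-negative line obtained from a cell bank, and 231-BR is its derivative that spreads to the brain in animals. The 231-BR cells were a gift from another laboratory and were kept in medium with the antibiotic G418. The MDA-MB-231 cells were bought from the cell bank and kept without G418. The line, its source and its medium therefore cannot be told apart. These MDA-MB-231 cells need not be the stock from which 231-BR was derived. Nothing says that the replicates were separate cultures, and the p-values measure the spread between these libraries. Levels are given as FPKM, which is per length of the gene, so that genes can be set beside each other within a library.

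Cancer-testis genes are active in the germ cells of the testis, silent in most other adult tissues, and switched on again in many tumors. Many lie on the X chromosome in families of near-identical copies, and loss of methylation at CpG sites of their promoters is the best known way in which they become active. MAGE-A proteins bind RING ubiquitin ligases, SSX proteins repress transcription and are known from the fusion with SS18 in synovial sarcoma, SPANX proteins belong to the sperm nucleus, and XAGE, GAGE and PAGE form a group of small related antigens.

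The lines expressed different cancer-testis families (the plot of family sums). SPANX, MAGEA and SSX RNA was high in 231-BR cells, and XAGE RNA was high in the parental cells. The summed FPKM of the 28 rows was 896 ± 18.9 in 231-BR cells and 99.2 ± 1.49 in the parental cells (SD, n = 3 each), 9.03-fold apart. In 231-BR cells SPANX supplied 90.6% of this sum, MAGEA 5.70%, SSX 3.56% and XAGE 0.162%. In MDA-MB-231 cells XAGE supplied 82.3% and SPANX 17.2%. Each family with a sum above 1 FPKM was carried by a single leading gene or pair of identical rows. In bulk RNA, more cells that express a gene and more RNA per cell cannot be told apart.

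**Figure D1:**
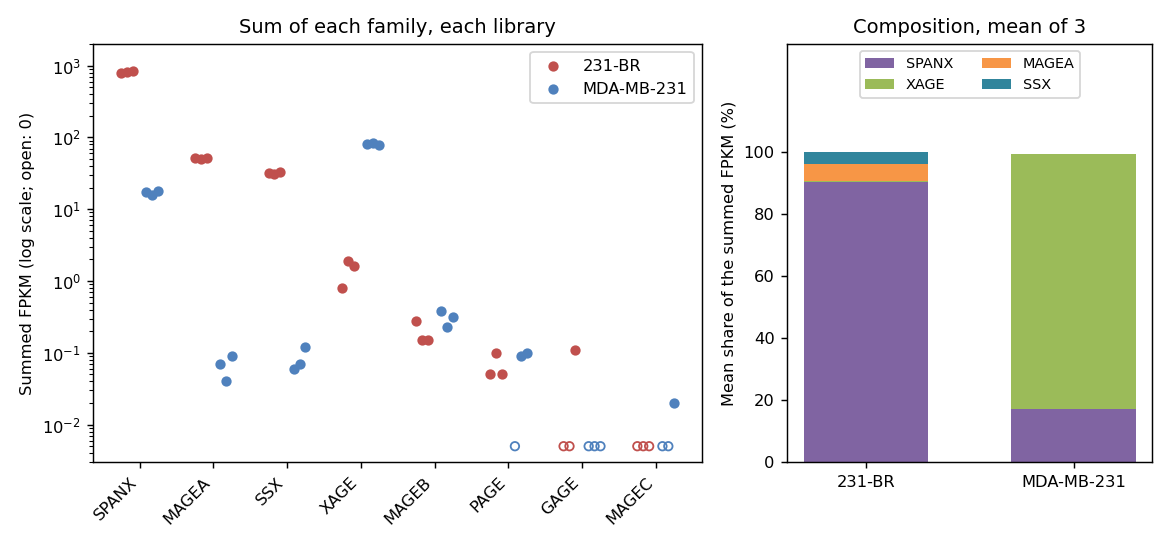
Left, summed FPKM of each family (log scale) in the 3 libraries of 231-BR (red) and of MDA-MB-231 (blue), with sums of 0 drawn as open circles at the bottom. Right, mean share of the 4 leading families in the sum of all cancer-testis rows in percent. SPANX holds 90.6% in 231-BR cells and XAGE holds 82.3% in the parental cells.

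Only 8 of the 28 rows reached a mean of 1 FPKM in either line. A mean of at least 0.1 FPKM over the 6 libraries, which a gene could reach through a single line, was needed for the test, and 12 rows had it (the plot of FPKM by library). With limma across 13465 genes, 231-BR cells had more RNA of 9 of the 12 and less of 2, at an adjusted p under 0.05 and an absolute log2 fold change over 1. Of all genes tested, 10.9% were called higher and 4.34% lower by the same criteria. Without the criterion on the fold the counts were again 9 and 2, against 44.4% higher and 32.9% lower among all genes. In 8 of the 12 all 231-BR libraries lay above those of the other line, and in 2 all lay below, against 44.9% and 33.5% of all genes. The median log2 fold change of the 12 was 3.17, and that of all genes tested was 0.0774. It includes SSX5 and SSX7, which were listed at 0 in the parental libraries and whose fitted change depends on the 0.1 added to each value. The remaining 16 rows had no value above 0.21 FPKM.

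**Figure D2:**
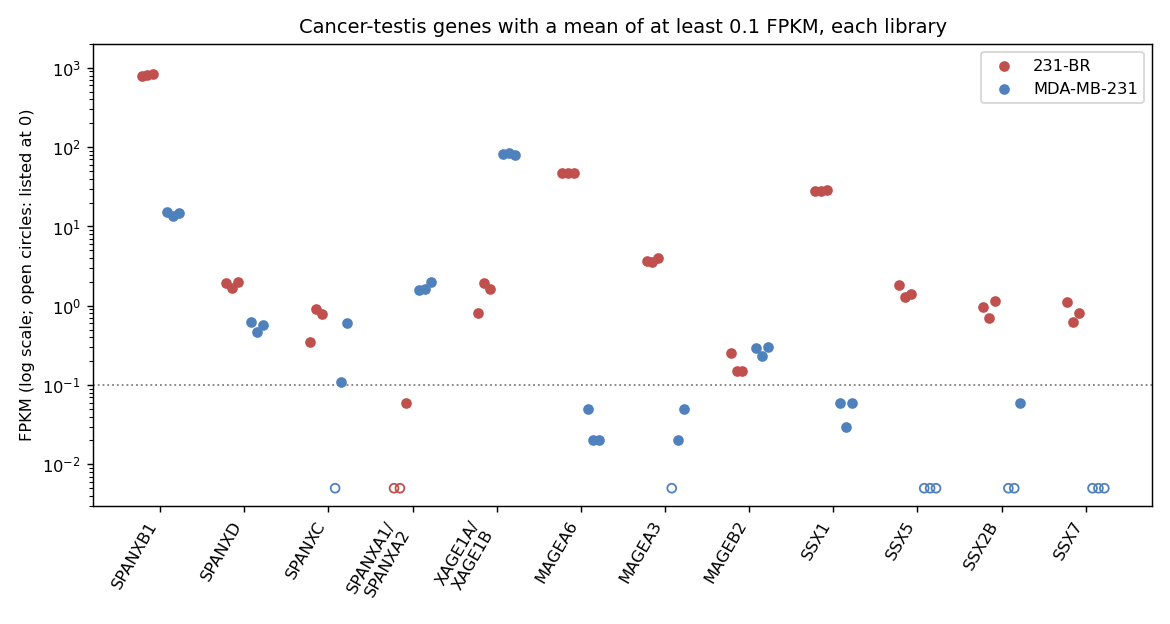
FPKM (log scale) of the 12 cancer-testis rows with a mean of at least 0.1 FPKM, by family, in each library of 231-BR (red) and MDA-MB-231 (blue). Open circles are values listed at 0 and the dotted line marks 0.1 FPKM. SPANXB1 is the highest row in 231-BR cells and XAGE1A/XAGE1B in the parental cells.

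SPANXB1 (chromosome X, 141002591 to 141003706 on the plus strand of GRCh38) was the most abundant cancer-testis gene of 231-BR cells. Its FPKM was 794.01, 804.04 and 828.14 in 231-BR replicates 1 to 3 and 15.22, 13.42 and 14.72 in those of the parental cells. It ranked 82 of all 17039 genes in 231-BR cells, with 0.172% of all summed FPKM, and 4922 in the parental cells. It thus was well expressed in the parental line too, unlike the MAGEA and SSX genes below. The log2 fold change was 5.80 (adjusted p = 1.9e-13 from limma, standard error 0.042).

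The other SPANX genes stayed near or below 2 FPKM and did not move together. SPANXD had 1.95, 1.68 and 2.02 FPKM in 231-BR cells and 0.63, 0.46 and 0.57 in the parental cells, and rose by a log2 fold change of 1.61 (adjusted p = 1.1e-06 from limma, standard error 0.127). SPANXA1 and SPANXA2, which share one row of values, had 0, 0 and 0.06 FPKM in 231-BR cells and 1.56, 1.64 and 2.0 in the parental cells. They were lower in 231-BR cells, with a log2 fold change of -3.96 (adjusted p = 5.3e-08 from limma, standard error 0.207), so that within this family the change went both ways. SPANXC had 0.35, 0.91 and 0.79 FPKM against 0, 0.11 and 0.61, and its libraries overlapped. Its log2 fold change of 1.59 (standard error 0.598) had an adjusted p of 0.033 from limma, and when 231-BR replicate 2 or 3 or MDA-MB-231 replicate 1 or 2 was left out the adjusted p was between 0.086 and 0.121. SPANXN3 and SPANXN5, of the more distant SPANX-N branch, had at most 0.08 FPKM in any library. SPANXB1 alone made up 99.7% of the family sum in 231-BR cells and 84.9% ± 2.44 (SD, n = 3) in the parental cells.

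The SPANX genes are near copies, and the transcripts show how far their reads can be told apart. The reads were 100 bases long, and of the 370 different windows of 100 bases in the SPANXB1 transcript of GENCODE 29, 98.9% were found in no other gene. The few others were shared with SPANXA1 and SPANXA2. For SPANXD the share was 61.1% and for SPANXC 44.1%, and no window of either gene was shared with SPANXB1. SPANXA1 and SPANXA2 had no window of their own, so the levels of SPANXA1, SPANXA2, SPANXC and SPANXD are less certain than that of SPANXB1.

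A short stretch of the transcript shows how SPANXB1 departs from its copies. The forward primer used for SPANXB1 in quantitative RT-PCR is identical to its transcript and differs at 4 positions from the best site in SPANXA1, SPANXC and SPANXD, whose sites are the same. The reverse primer is identical to the transcripts of all of them. In the second line the capitals mark these differences.
SPANXB1: ccaacaatccagtgtccgca
SPANXA1, SPANXC and SPANXD: cAaacaatccagtgCcGgcG

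The bases before the start of SPANXB1 and SPANXC were nearly the same. The windows of SPANXD and SPANXB1 shared only 16 bases, the last of the SPANXD window and the first of the SPANXB1 window. Their annotated starts thus stand at different places, and these windows do not compare the upstream sequences of SPANXD and SPANXB1. Over 210 aligned bases upstream of the RefSeq start (GRCh38.p14), SPANXB1 and SPANXC differed by 1 mismatch and 1 gap base, although SPANXB1 had 809 ± 17.5 FPKM and SPANXC 0.683 ± 0.295 FPKM in 231-BR cells (SD, n = 3 each). The aligned part held 7 CpG sites in SPANXB1 and 5 in SPANXC. They are printed because 2 almost equal upstream sequences went with very different amounts of RNA, with CpG sites in capitals. The SPANXB1 stretch is chrX:141002344-141002590 on the plus strand and the SPANXC stretch is chrX:141242519-141242767 on the minus strand.
SPANXB1: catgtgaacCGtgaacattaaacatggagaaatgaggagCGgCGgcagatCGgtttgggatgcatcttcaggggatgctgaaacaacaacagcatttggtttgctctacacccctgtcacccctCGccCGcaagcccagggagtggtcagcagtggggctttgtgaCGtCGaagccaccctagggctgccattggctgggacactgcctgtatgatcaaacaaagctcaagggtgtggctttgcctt
SPANXC: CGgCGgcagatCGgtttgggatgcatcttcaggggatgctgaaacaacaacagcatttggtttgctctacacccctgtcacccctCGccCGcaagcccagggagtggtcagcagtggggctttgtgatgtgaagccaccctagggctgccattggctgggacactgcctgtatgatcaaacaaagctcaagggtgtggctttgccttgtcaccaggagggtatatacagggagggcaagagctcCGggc

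XAGE1A and XAGE1B carried the XAGE family in the parental cells. XAGE1A lies on chromosome X from 52495676 to 52500812 (plus strand, GRCh38), and the values of both genes are identical in the table. Their FPKM was 0.81, 1.92 and 1.63 in 231-BR cells and 81.87, 84.12 and 78.96 in the parental cells. They ranked 975 of all genes in the parental cells and 10717 in 231-BR cells. The log2 fold change was -5.80 (adjusted p = 8.0e-09 from limma, standard error 0.231), nearly the size of that of SPANXB1 and in the other direction. The coding transcripts compared were identical over 614 bases, no 100-base window was particular to XAGE1A, and 23.7% of those of XAGE1B were its own. Since the table gives both genes 1 value, the share of either copy is not known from it. XAGE2, XAGE3 and XAGE5 were not analysed here.

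MAGEA6 and MAGEA3 were expressed in 231-BR cells and at most 0.05 FPKM in any library of MDA-MB-231 cells. MAGEA6 had 47.22, 47.17 and 47.26 FPKM in 231-BR cells and 0.05, 0.02 and 0.02 in the parental cells. This was the largest change among the cancer-testis genes that were above 0 in both lines, with a log2 fold change of 8.52 (adjusted p = 3.5e-12 from limma, standard error 0.096). MAGEA3 had 3.68, 3.53 and 4.02 FPKM against 0, 0.02 and 0.05, a log2 fold change of 4.98 (adjusted p = 1.8e-09 from limma, standard error 0.160). MAGEA6 was 12.7 ± 0.818 times as abundant as MAGEA3 in 231-BR cells (SD, n = 3) and made up 92.5% of the family sum.

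**Figure D3:**
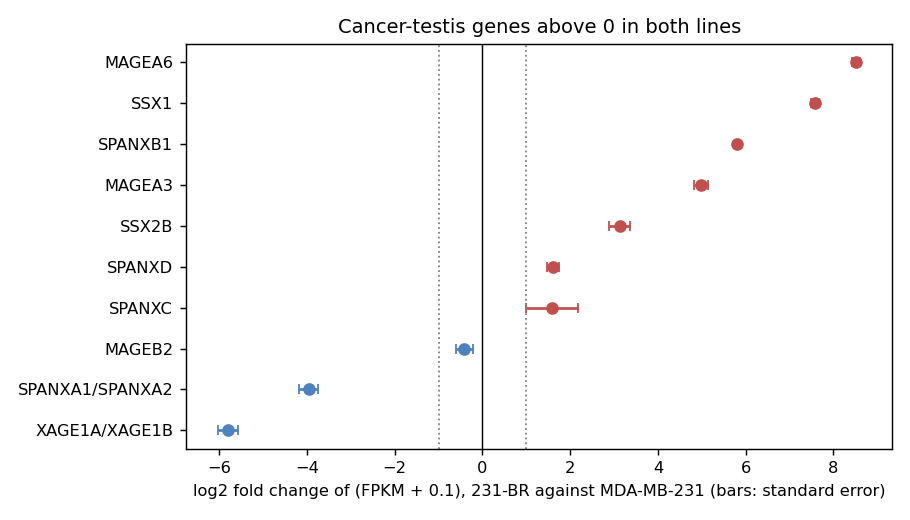
log2 fold change of FPKM + 0.1 in 231-BR against MDA-MB-231 cells for the 10 tested cancer-testis rows that were above 0 in both lines, with the standard error from limma as bars and dotted lines at 1 and -1. MAGEA6 stands at 8.52 and XAGE1A/XAGE1B at -5.80, and the bar of SPANXC is the widest.

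The other MAGEA genes were at or near 0 in both lines. MAGEA2, MAGEA2B, MAGEA5, MAGEA8, MAGEA10, MAGEA11 and MAGEA12 had at most 0.06 FPKM in any library. MAGEA12 and MAGEA2 lie between MAGEA3 and MAGEA6 on chromosome X. MAGEA3 (152698752 to 152702347, plus strand) and MAGEA6 (152766136 to 152769747, minus strand, GRCh38) thus were expressed on either side of copies near 0.

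MAGEA3 and MAGEA6 are almost the same gene in an inverted pair. Their longest transcripts differ at 25 of 1762 bases, and 67.0% of the 100-base windows of MAGEA6 and 65.1% of those of MAGEA3 were found in no other gene. The other windows were shared by both genes, so the level of MAGEA3, the lower of the pair, is less certain. The 250 bases upstream of the RefSeq start were identical in both, with 15 CpG sites, while the listed RNA levels differed 12.7-fold. MAGEA12 was alike at 157 of 175 aligned bases, which held 6 CpG sites in MAGEA6 and 4 in MAGEA12. It held 5 and 13 CpG sites in the whole windows of its 2 RefSeq starts, and had at most 0.02 FPKM. The MAGEA3 and MAGEA6 windows reach into transcribed bases, so the counts of whole windows do not cover the same stretch. The 8 letters GGATGTGA stood in the upstream window of MAGEA3, MAGEA6 and MAGEA12, searched on both strands after the sequences were seen. They were found in 10 of the 35 upstream windows of the cancer-testis genes, all of MAGE genes, in 2.67% of the 1236 windows of chromosome X, and in 0.966% of the 35093 windows of all genes. These 10 are not separate cases. MAGEA2 and MAGEA12 count with 2 overlapping windows each, MAGEA2B repeats a window of MAGEA2, and MAGEA3 and MAGEA6 are identical. The letters were picked from these sequences, which are also part of both backgrounds, so the shares only describe them.

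The parts that no transcript of MAGEA3 or MAGEA6 covers are printed to show the shared sequence, with CpG sites in capitals, beside that of MAGEA12, which was near 0. For MAGEA6 it is chrX:152769748-152769939 on the minus strand, for MAGEA3 chrX:152698544-152698735 on the plus strand, and for MAGEA12 chrX:152733507-152733756 on the plus strand (RefSeq, GRCh38.p14).
MAGEA6 and MAGEA3: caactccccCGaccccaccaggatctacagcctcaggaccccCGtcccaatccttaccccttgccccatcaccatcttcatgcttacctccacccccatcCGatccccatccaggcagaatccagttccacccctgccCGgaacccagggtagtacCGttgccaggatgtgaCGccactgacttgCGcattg
MAGEA12: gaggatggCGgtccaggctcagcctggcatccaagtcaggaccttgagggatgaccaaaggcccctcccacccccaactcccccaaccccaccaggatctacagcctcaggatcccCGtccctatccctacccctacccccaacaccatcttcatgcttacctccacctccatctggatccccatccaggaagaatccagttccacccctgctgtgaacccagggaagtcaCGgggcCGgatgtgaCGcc

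The SSX genes formed the third family of 231-BR cells, and every tested member was higher there. SSX1 had 27.94, 28.06 and 29.12 FPKM in 231-BR cells and 0.06, 0.03 and 0.06 in the parental cells. Its log2 fold change was 7.58 (adjusted p = 7.2e-12 from limma, standard error 0.097), and it made up 89.1% ± 2.0 (SD, n = 3) of the family sum in 231-BR cells. SSX1 lies on chromosome X from 48255317 to 48267444 on the plus strand of GRCh38. All its 100-base windows were its own, so its level does not rest on reads that fit another gene over their whole length.

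SSX5, SSX7 and SSX2B were weak beside SSX1. SSX5 had 1.83, 1.29 and 1.42 FPKM in 231-BR cells and was listed at 0 in the 3 MDA-MB-231 libraries (adjusted p = 1.1e-08 from limma). SSX7 had 1.12, 0.62 and 0.82 FPKM and was also listed at 0 in the 3 MDA-MB-231 libraries (adjusted p = 2.7e-07 from limma). SSX2B had 0.97, 0.70 and 1.14 FPKM against 0, 0 and 0.06, a log2 fold change of 3.12 (adjusted p = 9.0e-07 from limma, standard error 0.240). None of these groups overlapped. SSX2B shares 67.3% of its windows with SSX2, whose value was 0.01 FPKM in each 231-BR library, and 14.2% of its windows were its own. SSX2 had no window of its own, so the split of reads between SSX2B and SSX2 is not known from these values. SSX7 shares 36.6% of its windows with SSX2B. SSX4, with 0.21, 0.12 and 0.19 FPKM against 0, 0.04 and 0, was too low to be tested.

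The remaining families were close to 0. MAGEB2 had 0.25, 0.15 and 0.15 FPKM in 231-BR cells and 0.29, 0.23 and 0.30 in the parental cells, and its log2 fold change of -0.41 did not pass the test (adjusted p = 0.075 from limma). The adjusted p from limma was 0.046 under median-of-ratios scaling, 0.0057 under quantile normalization and 0.021 without 231-BR replicate 1. The log2 fold change was then -0.47, -0.75 and -0.57, so MAGEB2 was not called. MAGEB6, MAGEB10 and MAGEB17 had at most 0.04 FPKM in any library, and MAGEC3 at most 0.02. GAGE12G was listed at 0 in 5 libraries and at 0.11 FPKM in 231-BR replicate 3. PAGE2 and PAGE2B reached 0.10 FPKM in at most 1 library each. The genes called different between the lines lay in SPANX, XAGE, MAGEA and SSX among the 8 families with a row in the table. No row of GAGE, PAGE or MAGEC was high enough to be tested, and of MAGEB only MAGEB2 was, so these families could give few or no calls.

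The genes that only share the letters of the rule behaved otherwise. SSX2IP had 11.44, 10.78 and 10.78 FPKM in 231-BR cells and 14.24, 13.71 and 13.06 in the parental cells, a log2 fold change of -0.31 (adjusted p = 1.1e-04 from limma). CTAGE4 and CTAGE8, low genes of the cTAGE5/MIA2 group, had mean FPKM of 0.070 and 0.103 in 231-BR cells and 0.330 and 0.373 in the parental cells, and both were called lower. CTAGE1, CTAGE6 and CTAGE9 had at most 0.05 FPKM in any library.

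Some of these genes were on in 1 line and off in the other. A mean of at least 1 FPKM in 231-BR cells with less than 0.1 FPKM in every MDA-MB-231 library was found for 86 of the genes tested, or 0.639%. MAGEA3, MAGEA6, SSX1 and SSX5 were among them. The reverse was found for 20 genes, or 0.149%, with SPANXA1/SPANXA2 among them. SPANXB1 and XAGE1A/XAGE1B were above 0.5 FPKM in every library of both lines and so differed in amount.

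Next, the genes beside the members on chromosome X were compared, since members of a family lie in clusters. Members less than 2 Mb apart were taken as a block, and the tested genes between them and 5 on either side as neighbours. The 11 neighbours of the block from MAGEA5 to MAGEA6 had a median log2 fold change of 0.13, and 1 of them was called higher. This was GABRA3, a subunit of the GABA-A receptor, named here after its values were seen, with 5.81, 5.55 and 5.71 FPKM in 231-BR cells and 0.01, 0 and 0 in the parental cells. The 11 neighbours of the block from SPANXB1 to SPANXN3 had a median of 0.22, and 2 were called higher, FGF13 and SLITRK2, also named after their values were seen. The block from SSX5 to GAGE12G had 36 neighbours with a median of -0.31, of which none was called higher and 6 were called lower. The 10 neighbours of the block from XAGE1A to SPANXN5, which holds SSX7 and SSX2B as well as XAGE1A, had a median of -0.60. MAGED1 was called higher and GSPT2, SHROOM4 and FAM156A lower. GSPT2 and SHROOM4 are neighbours of both blocks and are also among the 6 called lower beside SSX5 to GAGE12G.

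**Figure D4:**
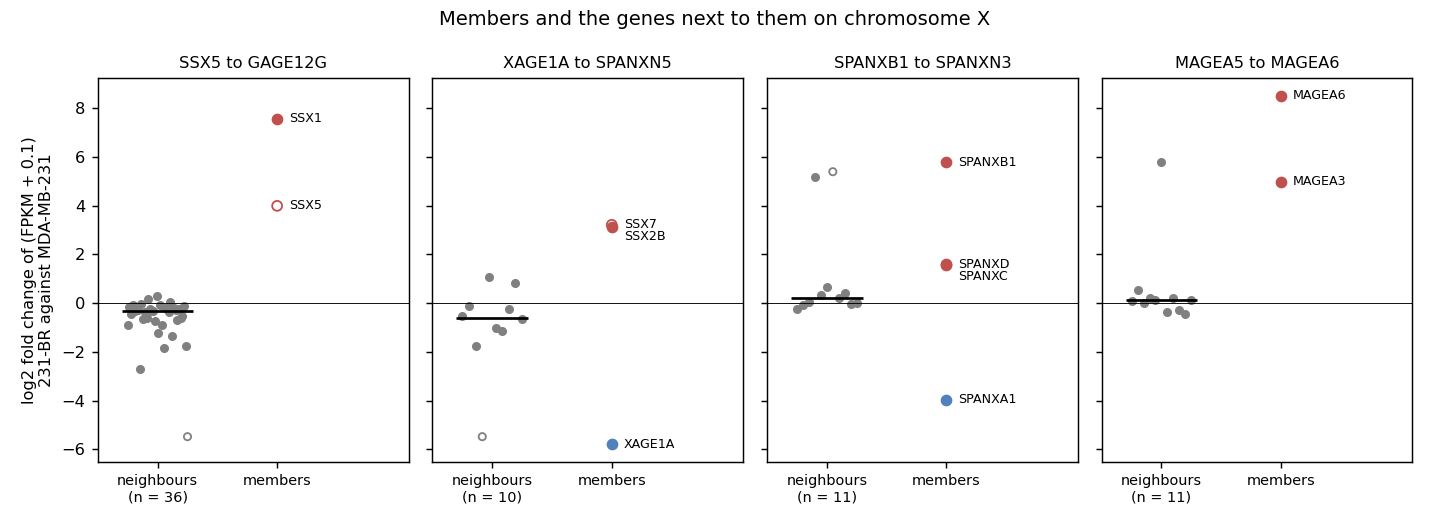
log2 fold change of FPKM + 0.1 of the neighbours (grey, black line: median) and of the tested cancer-testis genes (red: higher, blue: lower in 231-BR) for 4 blocks of chromosome X. Open circles are genes listed at 0 in all libraries of a line, whose position depends on the added 0.1. SSX1 lies at 7.58 beside neighbours with a median of -0.31, and XAGE1A and SSX2B, both of the block from XAGE1A to SPANXN5, lie on opposite sides of 0.

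In the XAGE1A to SPANXN5 and SPANXB1 to SPANXN3 blocks, members moved in opposite directions. MAGEB2, at a log2 fold change of -0.41 and not called, lay within the range of its 10 neighbours, from -0.59 to 5.79 with a median of 0.44, of which 3 were called higher. Over the 455 tested genes of chromosome X outside the rule, the median log2 fold change was 0.11, and 21.1% were called higher and 3.52% lower.

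Other cancer-testis genes were taken from 2 lists. Among 46 further X-linked genes 23 were in the table and 5 could be tested. Of the 5, 3 were called higher and 1 lower, against 10.9% and 4.34% of all genes tested and 21.1% and 3.52% of those of chromosome X. A gene could reach the test through a single line, and PLAC1 and FAM133A were under 0.1 FPKM in every parental library. ADGRG2 and PLAC1 were called higher at under 1 FPKM. FAM133A had 1.25, 1.00 and 1.11 FPKM in 231-BR cells and 0, 0 and 0.01 in the parental cells. IL13RA2, a decoy receptor for interleukin-13, had 28.95, 28.64 and 27.36 FPKM against 67.96, 68.18 and 68.20, a log2 fold change of -1.26 (adjusted p = 1.6e-10 from limma). Among 85 autosomal genes 60 were in the table and 30 were tested, with 2 called higher and 1 lower and a median log2 fold change of 0.22. Under quantile normalization this median was -0.08. CT62 had a mean of 1.24 FPKM in 231-BR and 0.013 in the parental cells, and CABYR, a calcium-binding protein of the sperm tail, had 0.213 and 2.61. The other gene called higher was BAGE2, with 0.83, 0.87 and 0.89 FPKM and listed at 0 in the 3 parental libraries. CT62 and BAGE2 thus also reached the test through 231-BR cells.

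The MAGE genes of type II, which normal tissues express as well, were tested for 6 of 14 listed genes. Of the 6, 2 were called higher, against 10.9% of all genes tested. MAGEE1 had a mean of 2.54 ± 0.085 FPKM in 231-BR cells and 0.560 ± 0.114 in the parental cells, and MAGED1 had 8.60 ± 0.507 and 3.98 ± 0.156 (SD, n = 3 each). Of 8 tested partner proteins of MAGE proteins 1 was called higher, the ubiquitin ligase PJA1, which had 11.6 ± 0.412 against 4.51 ± 0.091 FPKM (SD, n = 3 each). TRIM28, the ligase best known as the partner of MAGEA3 and MAGEA6, had 174 ± 4.04 and 211 ± 3.39 FPKM (SD, n = 3 each), and was not called at a log2 fold change of -0.28.

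The machinery of DNA methylation and silencing was expressed in both lines. Of 37 tested genes of this list 2 were called higher and none was called lower, against 10.9% and 4.34% of all genes tested. Without the criterion on the fold, 19 were higher and 11 lower at an adjusted p under 0.05 from limma. Among all genes these shares were 44.4% and 32.9%. DNMT1, which maintains methylation, had 124.67, 123.77 and 121.71 FPKM in 231-BR cells and 89.22, 87.75 and 87.96 in the parental cells. TET1, at most 0.33 FPKM, was one of the 2. UHRF1, which brings DNMT1 to newly made DNA, had 37.61, 38.54 and 37.33 FPKM against 54.73, 53.52 and 52.41. ATRX, a chromatin remodeler encoded on the X chromosome, was the other, with 15.5 ± 0.227 against 7.02 ± 0.177 FPKM (SD, n = 3 each). Methylation itself was not measured, and the part of these genes in the levels above was not tested.

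Markers of the parental line and of other cells were looked at as well. VIM, a mesenchymal marker, had at least 2273 FPKM in every library, the epithelial keratins KRT18 and KRT8 had at least 269 and 174, and ESR1, PGR, CDH1 and GATA3 had at most 1.36. GATA3 was called higher, with a mean of 1.24 FPKM in 231-BR and 0.433 in the parental cells. ERBB2 had up to 10.2 and EPCAM up to 9.31 FPKM. Of 10 markers of testis germ cells 2 were in the table, with at most 0.42 FPKM for SYCP3 and 0.03 for ACR. The markers of blood and endothelium had at most 0.48 FPKM, and of the neural and glial markers GFAP had at most 0.07, while MBP, which other cells also express, had up to 21.2 in 231-BR and 14.3 in the parental cells.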

How the data were processed

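RNA of 3 libraries of 231-BR and 3 of MDA-MB-231 cells was analysed. The authors sequenced poly(A) RNA on a BGISEQ-500, filtered reads with SOAPnuke and deposited FPKM per gene with 2 decimals. The submitters' processing notes name HISAT2 2.0.4, Bowtie2 2.2.5 and the build GRCh38.p12. The program that computed FPKM and the depth of the libraries are not given in the sources used here. Lines were taken from the sample titles, since another label counts the line's name upward across replicates.

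With limma 3.58.1 in R 4.3.3, log2(FPKM + 0.1) was fitted by cell line with a mean-variance trend over the 13465 genes with a mean of at least 0.1 FPKM, with Benjamini-Hochberg adjusted p-values taken over all of them. The fit was tested on simulated data. Fold changes are on the log2(FPKM + 0.1) scale, which understates the change of low genes. No fold is given for a gene listed at 0 in all libraries of a line. Family sums and shares had no test. Positions and transcripts came from GENCODE 29, and upstream sequences and gene order from RefSeq (GRCh38.p14), in which 29 of the 32 genes had an upstream entry. Where a gene had several starts, the entry with the lowest coordinate was compared and printed. Members and lists were chosen with earlier results of these data known. Every row with a mean of at least 1 FPKM in either line was named with all its values, as were the SPANX genes, and other genes of the lists if they had a mean of at least 1 FPKM in either line and were called. The genes of the lists named for their role, DNMT1, UHRF1, TRIM28 and the markers, were chosen otherwise. ADGRG2, PLAC1, BAGE2 and TET1 were named because they were called, although their means were under 1 FPKM in both lines. Alternatives were other pseudocounts, filters, scalings and call rules, leaving out each library, a block for the replicate, and identical rows counted singly.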

Additional observations from a re-analysis of the deposited data

How the results depend on the processing

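Of 136 values of single genes under the alternatives, 125 kept their direction and their side of the threshold. The other 11 fell below it, and none changed sign. SSX5 and SSX7, for which no fold is given, were not among these genes. The loss of the SSX7 call described below is therefore not one of the 11. The count of 9 genes called higher was 5 with a pseudocount of 1 and 5 with a filter at a mean of 1 FPKM, and it was 1 when a mean of at least 1 FPKM was asked for in both lines. The count of 2 called lower was 1 with that filter, 1 with that criterion and 4 when every identical row was counted. Fewer genes can be called under these filters by construction. Counting every row gave a log2 ratio of 5.43 for the SPANX sum (5.57 otherwise) and of 2.30 for the sum of all cancer-testis rows (3.17 otherwise), which median-of-ratios scaling put at 3.09, and a share of SPANXB1 of 77.1% in MDA-MB-231 cells. With each library left out in turn, 8 to 10 genes were called higher and 2 lower.

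SPANXC lost its call with a pseudocount of 0.01 (adjusted p = 0.059 from limma), without a filter on low values (0.086), under quantile normalization (0.098) and without the trend (0.103), and with a pseudocount of 1 its log2 fold change was 0.46. With the latter SPANXD (0.89) and SSX2B (0.92) fell under the criterion on the fold. SSX7, with a mean of 0.853 FPKM against values listed at 0, fell under it too, so its call depends on the added 0.1. Quantile normalization moved the median of all genes from 0.0774 to -0.060, and the calls over all genes from 1467 higher and 584 lower to 1061 and 947.

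The replicate numbers are only numbers here, with correlations of 0.087, -0.04 and -0.106 between same-numbered libraries. With a replicate block 9 cancer-testis genes were called higher and 2 lower, and 1468 and 585 of all genes (1467 and 584 without the block). Values have 2 decimals and no depth, so levels near 0.01 FPKM cannot be graded.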
